A study of Mus musculus with 12 samples.

Results

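Death receptors are cell-surface sensors that can order a cell to die, and 7 genes that carry or restrain that order were followed through the jejunum of mice: Tnfsf10, Fadd, Casp8, Cflar, Ripk1, Ripk3 and Mlkl. They were taken by name, and the probe set with the highest mean signal stood for each gene among the array's probe sets that carry 1 gene symbol. By that rule 6 of the 7 genes had a value, out of 19938 genes in all. Ripk1, the kinase that links receptor complexes to Ripk3, has no probe set of its own in the annotation used, so it was not analysed here.

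The 12 samples were whole jejunum, the middle stretch of the small intestine, 1 array per mouse. The groups were knockout (KO) mice at day 6, day 9 and day 12 and wild-type (WT) mice at the same days, with 2 mice in each of the 6 groups. The deleted gene, Fgfr1op, encodes a protein of the centrosome and is now named Cep43. Induction was by intraperitoneal tamoxifen (75 mg/kg, once a day for 5 days), and the labels count the days as post-tamoxifen. The labels do not say which promoter drives the recombinase, which part of the gene is deleted, the age or strain of the mice, or whether WT mice carried the recombinase. The same injection protocol and post-tamoxifen days are given for WT as for KO mice. Effects of the recombinase and of gene loss cannot be told apart in any difference below. The array was the Affymetrix Mouse Gene 1.0 ST, and every value is a log2 signal as deposited, so a difference of 1 is a doubling or a halving.

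In this pathway, TRAIL (the product of Tnfsf10), Fas ligand or TNF binds a receptor whose cytoplasmic death domain recruits the adaptor FADD, directly or (for TNF) through TRADD, and FADD gathers procaspase 8, which then starts apoptosis. Cellular FLIP (the product of Cflar) resembles caspase 8 without its protease activity and limits that step. Where caspase 8 does not act, RIPK1 and RIPK3 join through their RHIM motifs, RIPK3 phosphorylates MLKL, and MLKL breaches the plasma membrane, a lytic death called necroptosis. In mice, deleting Casp8 or Fadd in the gut epithelium is known to cause Ripk3-dependent epithelial death and loss of Paneth cells, the antimicrobial cells of the crypt.

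The 250 bases before the annotated start are shown for the gene with the largest decrease, Tnfsf10, and the gene with the largest increase, Ripk3, from RefSeq's GRCm38.p6 annotation. The Tnfsf10 stretch is chr3:27316827-27317076 on the plus strand, and the Ripk3 stretch is chr14:55788858-55789107 on the minus strand, each written 5′ to 3′ along the gene's own strand. Capitals mark any match, on either strand, to an ISRE (GAAANNGAAA), a GAS element (TTCNNNGAA), an NF-kB site (GGGNNTTTCC), an AP-1 site (TGANTCA), a GC box, a TATA box or a CCAAT box.
Tnfsf10: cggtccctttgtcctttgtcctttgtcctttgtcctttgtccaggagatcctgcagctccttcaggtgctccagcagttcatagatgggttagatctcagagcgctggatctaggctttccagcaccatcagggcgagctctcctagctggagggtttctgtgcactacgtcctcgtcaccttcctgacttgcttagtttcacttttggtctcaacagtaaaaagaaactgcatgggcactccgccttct
Ripk3: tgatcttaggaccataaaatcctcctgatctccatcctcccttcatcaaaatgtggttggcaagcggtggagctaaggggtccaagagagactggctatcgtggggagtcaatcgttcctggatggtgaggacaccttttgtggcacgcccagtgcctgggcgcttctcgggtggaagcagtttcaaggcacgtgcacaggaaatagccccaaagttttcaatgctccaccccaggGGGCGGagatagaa
The Tnfsf10 stretch held 0 matches, and the Ripk3 stretch held 1, a GC box (GGGCGG) that begins 14 bases before the start. Among 32851 such stretches of the mouse genome, 32.7% held a GC box, 33.8% a CCAAT box, 12.4% a TATA box, 7.02% a GAS element, 6.75% an AP-1 site, 2.98% an ISRE and 1.41% an NF-kB site. The Fadd stretch held GC boxes at 79 and 14 bases before the start, the Casp8 stretch held 1 CCAAT box, and the Cflar stretch held overlapping TATA boxes (TATAAA) on opposite strands. A match or its absence describes these letters only.

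The targeted gene and the tissue were looked at before the members. Cep43 had log2 signals of 6.69 and 6.56 in KO and 6.97 and 6.90 in WT at day 6, 6.60 and 6.63 in KO and 6.96 and 7.05 in WT at day 9, and 6.97 and 6.74 in KO and 6.83 and 7.04 in WT at day 12. Thus KO lay below WT at days 6 and 9, while at day 12 the genotypes overlapped. Of all genes, 44.6% and 65.8% likewise did not overlap at days 6 and 9. The Cep43 difference was small, at -0.31, -0.39 and -0.09 at days 6, 9 and 12 (limma adjusted p = 0.267, 0.0184 and 0.638). Whether the probe set lies in the deleted part is not given in the sources used here. All 8 epithelial and all 9 enterocyte markers lay on every array above the 95th percentile of 1027 odorant receptor genes, which serve here as a gauge of weak signal. The smooth muscle markers set the day 6 arrays apart: their mean, relative to the 6 WT mice, was -1.114 and -1.297 in KO against 0.603 and -0.110 in WT.

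The strongest result was a loss of Tnfsf10 signal, with smaller decreases of Fadd and Cflar at days 9 and 12 and increases of Ripk3 at days 6 and 9. A gene was called when its limma p-value, adjusted over all 19938 genes by the Benjamini-Hochberg method, was under 0.05. At day 6, Ripk3 was called higher and Tnfsf10 lower in KO, 2 of 6 members, when 1.03% of all genes were called (0.597% higher and 0.431% lower). Without KO replicate 1, KO replicate 2 or WT replicate 1 of day 6, 0 members were called at day 6, and without any day 9 replicate or either WT replicate of day 12, 1 was. At day 9, Ripk3 was higher and Tnfsf10, Cflar and Fadd were lower, 4 of 6 members against 29.7% of all genes (12.6% higher and 17.1% lower). At day 12, Tnfsf10, Cflar and Fadd were lower and 0 members were higher in the limma fit (1, Mlkl, at an unadjusted p under 0.05), 3 of 6 members against 27.3% of all genes (13.7% higher and 13.7% lower). With the days averaged, 2 members were higher (Ripk3 and Mlkl), 3 were lower and Casp8 was not called, against 32.6% of all genes (15.7% higher and 16.9% lower). The median difference of the 6 members was 0.14, -0.55 and -0.53 at days 6, 9 and 12, beside 0.003, 0.025 and 0.024 over all genes.

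**Figure D1:**
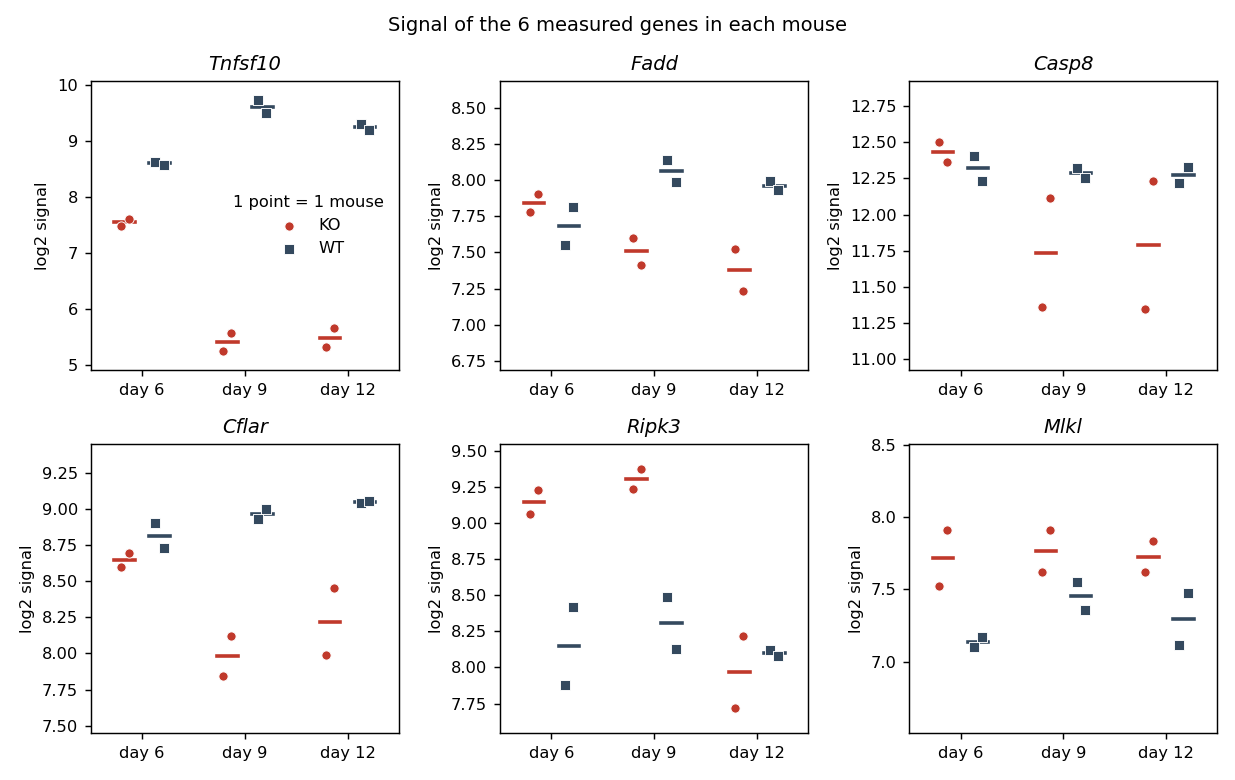
Log2 signal (vertical axis, range set for each gene) of the 6 measured genes by day, with 1 point per mouse, KO left of WT, and a line at each group's mean. Tnfsf10 in KO sits below WT at each day, the KO points of Ripk3 sit above WT at days 6 and 9 and not at day 12, and the KO points of Casp8 spread from 11.35 to 12.23 at day 12.

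**Figure D2:**
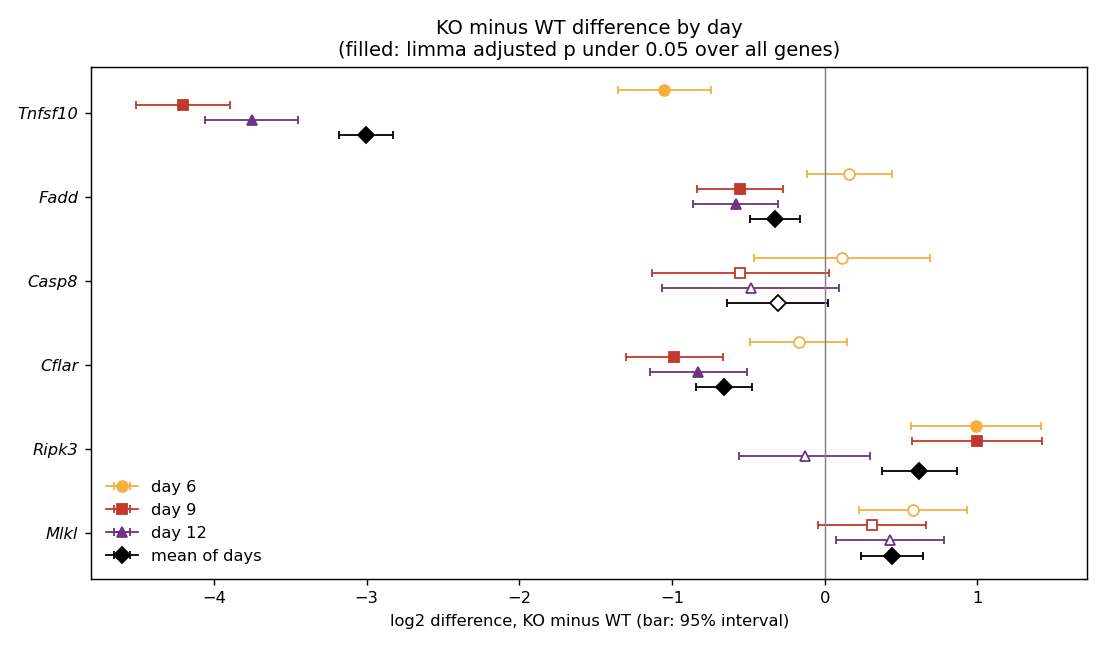
KO minus WT difference on the log2 scale with its 95% interval, for days 6, 9 and 12 and the mean of the days. Filled symbols passed the limma test over all genes, and Tnfsf10 reaches -4.20 at day 9 while the other genes stay between -1 and 1.

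Tnfsf10 encodes TRAIL, the ligand that triggers apoptosis through its death receptor. Its log2 signal at day 6 was 7.49 and 7.61 in KO mice, against 8.63 and 8.57 in WT mice. At day 9 it was 5.25 and 5.57 in KO, against 9.73 and 9.49 in WT. At day 12 it was 5.33 and 5.66 in KO, against 9.30 and 9.20 in WT. The genotypes did not overlap at any day (nor did they for 44.6%, 65.8% and 58.2% of all genes at days 6, 9 and 12), and the 4 KO mice of days 9 and 12 lay far below every other mouse. The KO minus WT difference was -1.05 at day 6 (SE 0.14, limma adjusted p = 0.00687), a 2.07-fold decrease. It was -4.20 at day 9 (SE 0.14, limma adjusted p = 9.22e-09), an 18.4-fold decrease. It was -3.75 at day 12 (SE 0.14, limma adjusted p = 1.24e-08), a 13.5-fold decrease.

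Among all 19938 genes this was rank 58 from the bottom at day 6, 12 at day 9 and 22 at day 12. Averaged over days the difference was -3.00 (limma adjusted p = 5.43e-10), with an exact permutation p of 0.00926, the smallest that relabelling genotypes within days can give. The loss deepened after day 6: the difference at day 9 minus that at day 6 was -3.15 (limma adjusted p = 6.62e-06), and at day 12 minus day 6 it was -2.71 (limma adjusted p = 7.81e-06). Such a change was called for 12.7% of all genes between days 6 and 9 and for 13.2% between days 6 and 12, and for 3 (Tnfsf10, Cflar and Fadd) and 3 (Tnfsf10, Fadd and Ripk3) of the 6 members. Days 9 and 12 differed by 0.45 (95% interval 0.02 to 0.88), which did not pass (limma adjusted p = 0.211). From highest to lowest, the groups ran WT day 9, WT day 12, WT day 6, KO day 6, KO day 12 and KO day 9.

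Both genotypes moved between days 6 and 9, in opposite directions, when 24.5% of all genes were called for that change in KO and 0.0602% in WT. Day 9 minus day 6 was -2.14 in KO (limma adjusted p = 3.21e-06) and 1.01 in WT (limma adjusted p = 0.0429). The WT call is a weak one: it held only without either KO replicate of day 6 or of day 12 among the 12 fits that left out 1 array, and the F test over all days in WT gave an adjusted p of 0.105. WT day 12 against WT day 9 and WT day 12 against WT day 6 did not pass (limma adjusted p = 0.489 and 0.355), nor did KO day 12 against KO day 9 (limma adjusted p = 0.692). The day 6 call of KO against WT was lost without KO replicate 1 of that day (adjusted p = 0.0888), without KO replicate 2 (0.0620) or without WT replicate 1 (0.0689). Up to 5.94% of the 1027 odorant receptor genes matched or exceeded Tnfsf10 on a KO array, against 0 on WT arrays, so the KO signal of days 9 and 12 reached the dim end of the scale and the fold may be understated.

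In whole tissue, fewer cells of a type and less RNA per cell cannot be told apart. Among all genes, 17.1% were called lower and 12.6% higher at day 9, and 13.7% each way at day 12. Of 10 T cell and intraepithelial lymphocyte markers, a class of cells that can carry TRAIL, 5 were lower and 1 (Cd247) higher in KO at day 9, and 7 were lower at day 12. Their mean, relative to the 6 WT mice, was -0.561 and -0.434 in KO against 0.273 and 0.090 in WT at day 9, and -0.950 and -1.287 in KO against -0.124 and 0.197 in WT at day 12. At day 6 it overlapped, at -0.157 and -0.028 in KO and -0.375 and -0.061 in WT. Of 9 enterocyte markers, 4 were lower at day 9, and at day 12 6 were lower and 1 higher. Their mean was -0.941 and -0.891 in KO against -0.029 and 0.003 in WT at day 9, and -1.362 and -1.058 in KO against 0.094 and 0.077 in WT at day 12. The median difference of the 9 markers was smaller, at -0.25 at day 9, where 5 were not called, and -0.76 at day 12. The markers thus changed unequally. The part of these cells in the Tnfsf10 result was not tested.

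**Figure D3:**
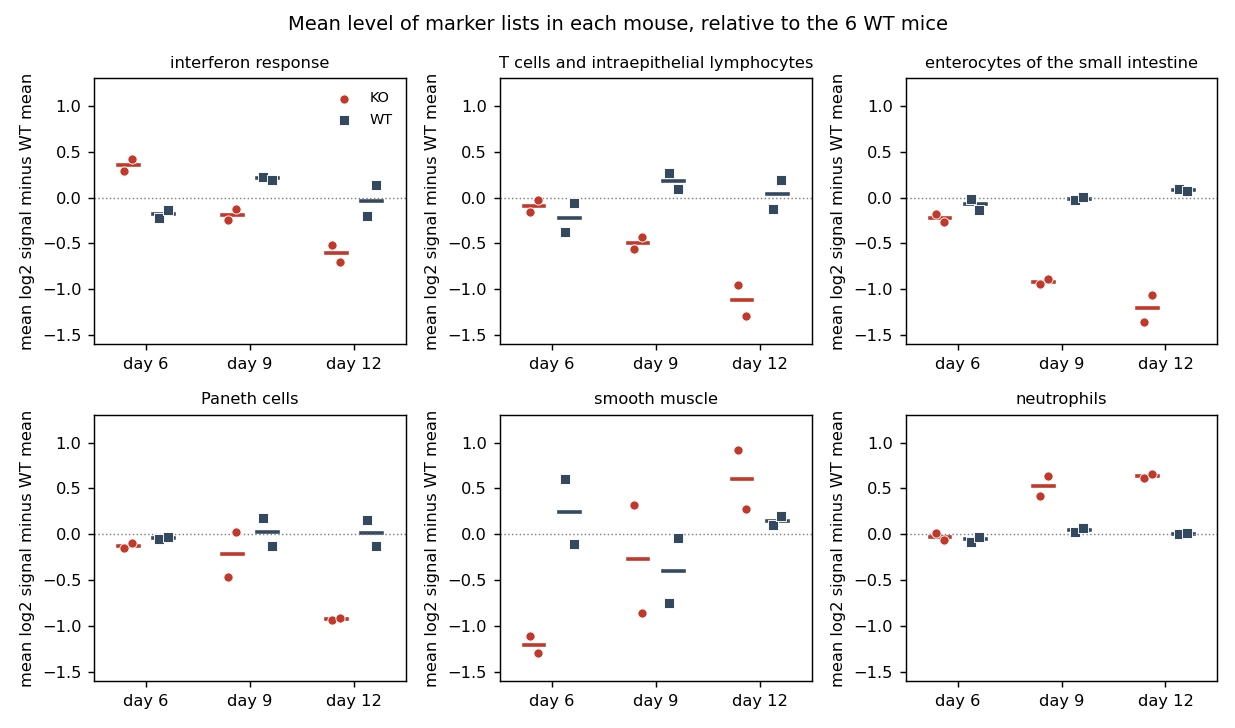
Mean log2 signal of 6 gene lists in each mouse, relative to the mean of the 6 WT mice, by day and with KO left of WT. The smooth muscle mean of the day 6 KO mice lies at -1.114 and -1.297, and the T cell and enterocyte means of KO lie below WT at days 9 and 12.

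The other ligands of the family showed nothing of that size, though several were dim in WT and had little room to fall. In WT mice Lta ran from 4.80 to 5.18, Tnfsf14 from 5.26 to 5.63 and Tnf from 5.29 to 5.97. The 95th percentile of the odorant receptor genes was 5.23 to 5.47 over the arrays. Among all genes, 1.03%, 29.7% and 27.3% were called at days 6, 9 and 12. At day 6, 0 of 7 measured ligands were called by limma (0 also at an unadjusted p under 0.05), and the counts were 2 higher and 1 lower in KO at day 9 and 0 higher and 1 lower at day 12 (1 higher at an unadjusted p under 0.05, Tnf). The 3 calls of day 9 became 1 when KO replicate 1 of that day was left out and 0 when WT replicate 1 was, and the day 12 call was lost without KO replicate 2 or either WT replicate of that day. Tnfsf15 (TL1A) differed by -0.62 at day 9 (limma adjusted p = 0.00581) and by -0.48 at day 12 (limma adjusted p = 0.0225). Tnfsf11 (RANKL) rose by 0.56 and Tnfsf14 (LIGHT) by 0.45 at day 9. Tnf was not called at any day, with signals of 6.20 and 5.84 in KO against 5.37 and 5.69 in WT at day 12 and a difference of 0.49 there (limma adjusted p = 0.101). Fasl, the Fas ligand gene, ran from 4.76 to 4.94 in KO mice and from 4.73 to 4.87 in WT mice. That is dim: at least 10.5% of the odorant receptor genes matched or exceeded Fasl on every array.

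The receptors called at days 6, 9 and 12 were higher in KO, with Fas as the 1 exception. Of 12 receptors and decoys, 3 were higher and 0 lower at day 6 (1 lower at an unadjusted p under 0.05, Fas), 6 were higher and 1 lower at day 9, and 5 were higher and 1 lower at day 12. Without KO replicate 1, KO replicate 2 or WT replicate 1 of day 6, 1 receptor was called at day 6. The median difference of the 12 was 0.09, 0.30 and 0.30 at days 6, 9 and 12. Among all genes, 1.03%, 29.7% and 27.3% were called at those days. Tnfrsf12a, the receptor for TWEAK, rose by 0.88 at day 6, 2.17 at day 9 and 2.07 at day 12 (limma adjusted p = 0.00278, 1.19e-07 and 9.09e-08). Tnfrsf21 (death receptor 6) rose by 0.87, 1.24 and 1.75 at the same days. Tnfrsf23, a mouse TRAIL receptor without a death domain, differed by 0.25 at day 6 and rose by 1.21 at day 9 and 2.62 at day 12 (limma adjusted p = 0.743, 0.000820 and 2.12e-06). Eda2r, the receptor for ectodysplasin A2, rose by 0.60 at day 6 and differed by -0.13 at day 9 and 0.32 at day 12 (limma adjusted p = 0.0469, 0.490 and 0.0802). Its signals, at most 4.90, lay below the 95th percentile of the odorant receptor genes (5.23 to 5.47) on every array.

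The receptor that matches TRAIL and the receptor that matches Fas ligand went opposite ways. Tnfrsf10b, the mouse death receptor for TRAIL, had signals of 7.44 and 7.74 in KO against 6.99 and 7.01 in WT at day 9, and 7.64 and 7.82 in KO against 7.32 and 7.10 in WT at day 12. Its difference was 0.23 at day 6, where the genotypes overlapped, 0.59 at day 9 and 0.52 at day 12 (limma adjusted p = 0.607, 0.00812 and 0.0168). Fas had signals of 6.44 and 6.64 in KO against 8.14 and 7.78 in WT at day 9, and 6.33 and 6.63 in KO against 7.50 and 7.41 in WT at day 12. Its difference was -0.32 at day 6, -1.42 at day 9 and -0.97 at day 12 (limma adjusted p = 0.398, 2.27e-05 and 0.000310).

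Setting ligand against receptor on the same array removes a constant scaling of that array, though not one that depends on signal level. The log2 ratio of Tnfsf10 over Tnfrsf10b differed by -1.28 at day 6, -4.79 at day 9 and -4.27 at day 12, KO minus WT, and KO lay below WT at each day. The average over days was -3.45 (exact permutation p = 0.00926, adjusted p = 0.0123 over the 4 ratios examined). Tnfsf10 by itself averaged -3.00, so the ratio is not separate support for its decrease. A ratio of 2 probe sets shows unequal change and not which transcript is more abundant.

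Fadd is the adaptor that joins death receptors to caspase 8. Its log2 signal was 7.78 and 7.90 in KO against 7.55 and 7.81 in WT at day 6, where the genotypes overlapped. It was 7.60 and 7.41 in KO against 8.14 and 7.99 in WT at day 9. It was 7.52 and 7.23 in KO against 7.99 and 7.93 in WT at day 12. At both later days each KO mouse lay below each WT mouse, when 65.8% (day 9) and 58.2% (day 12) of all genes did not overlap either.

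The Fadd difference was 0.16 at day 6 (limma adjusted p = 0.734), -0.56 at day 9 (SE 0.13, adjusted p = 0.00677) and -0.58 at day 12 (SE 0.13, adjusted p = 0.00504). These are decreases of 1.47-fold and 1.5-fold. The change of the difference from day 6 was itself called, at -0.72 for day 9 (limma adjusted p = 0.0241) and -0.75 for day 12 (limma adjusted p = 0.0185). Within KO, day 12 minus day 6 was -0.46 (limma adjusted p = 0.0205); within WT, day 9 minus day 6 was 0.38 and did not pass (limma adjusted p = 0.370). The change within KO lost its call without KO replicate 1 (adjusted p = 0.0536) or 2 (0.141) of day 6, without KO replicate 2 of day 12 (-0.32, 0.137) and with the smooth muscle mean as a covariate (0.258). The day 9 call of KO against WT was lost without WT replicate 1 of that day, at -0.48 (adjusted p = 0.0602). The change from day 6 to day 9 lost its call without any of KO replicate 1 or 2 or WT replicate 1 of day 6, KO replicate 2 of day 9 or WT replicate 1 of day 9, with values from -0.78 to -0.59, and the change from day 6 to day 12 lost it without KO replicate 2 or WT replicate 1 of day 6 or WT replicate 1 of day 12, from -0.71 to -0.61. With the smooth muscle mean as a covariate, both changes lost their call (adjusted p = 0.170 and 0.161), and that from day 6 to day 9 also lost it under quantile normalization (0.0564) and adjusted over all probe sets (0.0596).

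The genes that surround FADD in the receptor complexes split in direction, at days when 29.7% (day 9) and 27.3% (day 12) of all genes were called. Of 20 measured adaptors and ubiquitin regulators, 0 were called by limma at day 6 (3 higher and 2 lower at an unadjusted p under 0.05), 2 were higher and 8 lower at day 9, and 3 were higher and 7 lower at day 12. Without either WT replicate of day 12 the count of that day was 6, not 10. Tnfaip3, whose product A20 edits ubiquitin chains and restrains NF-kB, had signals of 7.04 and 7.16 in KO against 8.62 and 8.28 in WT at day 9. Its difference was -0.80 at day 6 (limma adjusted p = 0.0552), -1.35 at day 9 (adjusted p = 0.000132) and -0.82 at day 12 (adjusted p = 0.00366). Birc2, a ubiquitin ligase that keeps RIPK1 in survival signalling, fell by 0.86 at day 9 and 0.66 at day 12, and its relative Birc3 fell by 0.79 and 0.60. Spata2, which brings the deubiquitinase CYLD to the complex, fell by 1.12 at day 9. Tradd, the TNF receptor adaptor, rose by 0.96 at day 9, and Mapkapk2, a kinase that phosphorylates RIPK1, rose by 0.67 at day 12.

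Casp8 encodes caspase 8, the initiator protease of this route and a brake on necroptosis. Its signal was 12.50 and 12.37 in KO against 12.41 and 12.24 in WT at day 6. It was 11.36 and 12.11 in KO against 12.32 and 12.25 in WT at day 9. It was 11.35 and 12.23 in KO against 12.22 and 12.33 in WT at day 12. In each later group the KO mice differed from one another by more than the KO mean differed from WT, and at day 12 the genotypes overlapped.

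No Casp8 difference passed the limma test: 0.11 at day 6 (95% interval -0.46 to 0.69, adjusted p = 0.940), -0.55 at day 9 (-1.13 to 0.03, adjusted p = 0.144) and -0.49 at day 12 (-1.06 to 0.09, adjusted p = 0.217). The average over days was -0.31 (limma adjusted p = 0.153, exact permutation p = 0.213). These intervals do not show equal levels. With the smooth muscle mean as a covariate the average was -0.45 and was called (limma adjusted p = 0.0229). Without KO replicate 2 of day 9 it was -0.43, and without KO replicate 2 of day 12 it was -0.46. The call turned on single mice. Without KO replicate 2 of day 9 that day's difference was -0.93 (adjusted p = 0.0282), and without KO replicate 1 of day 9 it was -0.18 (adjusted p = 0.719). Without KO replicate 2 of day 12 that day's difference was -0.93 (adjusted p = 0.0132), and without KO replicate 1 of day 12 it was -0.04 (adjusted p = 0.934). The day 9 call was also gained without either KO replicate of day 12 (adjusted p = 0.0470). The KO mice with low Casp8 had the higher smooth muscle mean of their pair, at 0.317 for replicate 1 against -0.855 for replicate 2 at day 9, and 0.925 against 0.277 at day 12; its part in the spread was not tested.

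Cflar encodes cellular FLIP, the inhibitor that pairs with caspase 8, and its gene lies on chromosome 1, as Casp8 does. Its brightest probe set read 8.60 and 8.69 in KO against 8.90 and 8.73 in WT at day 6. It read 7.84 and 8.12 in KO against 8.93 and 9.00 in WT at day 9. It read 7.99 and 8.45 in KO against 9.04 and 9.06 in WT at day 12. KO lay below WT at each day, narrowly at day 6 and by more than 0.5 at the later days. Of all genes, 44.6%, 65.8% and 58.2% did not overlap in 1 direction or the other at days 6, 9 and 12.

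The Cflar difference was -0.17 at day 6 (limma adjusted p = 0.764), -0.98 at day 9 (SE 0.14, adjusted p = 0.000388) and -0.83 at day 12 (SE 0.14, adjusted p = 0.00117). These later decreases were 1.98-fold and 1.77-fold. The average over days was -0.66 (limma adjusted p = 8.55e-05, exact permutation p = 0.00926). The day 9 difference exceeded that of day 6 by -0.82 (limma adjusted p = 0.0237), while day 12 minus day 6, at -0.66, did not pass (limma adjusted p = 0.0564). The first of these lost its call in 6 of 12 fits that left out 1 array (KO replicate 1 or 2 or WT replicate 2 of day 6, KO replicate 1 of day 9, or either WT replicate of day 9), with values from -0.86 to -0.68. With the smooth muscle mean as a covariate it was -0.56 (adjusted p = 0.355), and adjusted over all probe sets its p was 0.0620. The change from day 6 to day 12 gained a call without KO replicate 2 of day 12, at -0.89 (adjusted p = 0.00583), and was -0.43 without KO replicate 1 of day 12 (adjusted p = 0.146).

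Cflar has 3 probe sets, and they disagreed in size. Tested over all 35556 probe sets, the second gave -0.11, -0.82 and -0.53 at days 6, 9 and 12 and was called at days 9 and 12 (limma adjusted p = 0.00119 and 0.0106). The third gave -0.16, -0.26 and -0.42 and was called at neither day 9 nor day 12 (limma adjusted p = 0.217 and 0.0687), though its average over days of -0.28 was (adjusted p = 0.0310). All 3 were lower in KO at each day, so the direction did not depend on the probe set and the size did. Whether the brightest one also reads a near-identical copy of the gene could not be checked with the tables used here.

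The ratio of Cflar over Casp8, inhibitor over protease, was lower in KO by 0.28 at day 6, 0.43 at day 9 and 0.34 at day 12, written as differences of -0.28, -0.43 and -0.34. Each KO mouse lay below each WT mouse of its day. The average was -0.35 (exact permutation p = 0.00926, adjusted p = 0.0123 over 4 ratios). With the mean of all 3 Cflar probe sets it was -0.17 and no longer passed (adjusted p = 0.296), nor did it without WT replicate 2 of day 9 (adjusted p = 0.0741) or WT replicate 1 of day 12 (adjusted p = 0.0617).

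**Figure D4:**
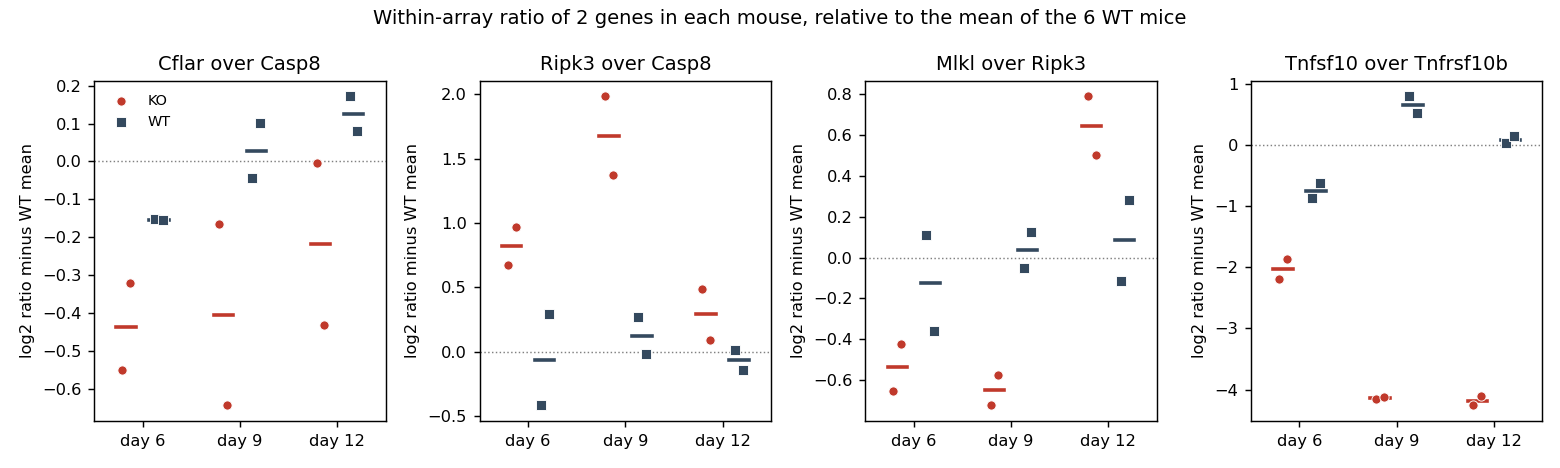
Log2 ratio of 2 genes within each array, relative to the mean of the 6 WT mice, by day and with KO left of WT. The ratio of Ripk3 over Casp8 is higher in KO at each day and highest at day 9, and that of Mlkl over Ripk3 is lower in KO at days 6 and 9 and higher at day 12.

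Caspases other than Casp8 and genes of the mitochondrial arm of apoptosis changed in both directions at days 9 and 12. Of 22 measured genes, 0 were called higher by limma (1 at an unadjusted p under 0.05) and 1 lower at day 6, 2 higher and 9 lower at day 9, and 5 higher and 8 lower at day 12. The median difference of the 22 was -0.02, -0.28 and -0.05 at days 6, 9 and 12, and over all genes 12.6% were higher and 17.1% lower at day 9 and 13.7% each way at day 12. Without KO replicate 1 or WT replicate 2 of day 12 the count of that day was 8, not 13, and the day 6 call was kept only without a KO replicate of day 9 or day 12. Casp1, the inflammasome protease, had signals of 8.55 and 8.64 in KO against 10.16 and 10.11 in WT at day 9, and its difference was -0.45, -1.54 and -1.57 at days 6, 9 and 12 (limma adjusted p = 0.0410, 3.29e-07 and 1.80e-07). Casp4, the sensor of cytosolic lipopolysaccharide, fell by 1.20 at day 9 and 1.57 at day 12. Casp6, an effector caspase, fell by 2.06 at day 9 and by 0.78 at day 12.

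Regulators at the mitochondrion moved both ways. Apaf1, the scaffold of the apoptosome, fell by 1.17 at day 12, and Bok, a Bax-like protein, rose by 1.01 at both day 9 and day 12. Bcl2, which blocks mitochondrial permeabilisation, differed by -0.27 at day 9 and rose by 1.29 at day 12 (limma adjusted p = 0.400 and 0.00107).

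Ripk3 encodes the kinase that commits a cell to necroptosis. Its signal was 9.06 and 9.23 in KO against 7.88 and 8.42 in WT at day 6. It was 9.24 and 9.37 in KO against 8.49 and 8.12 in WT at day 9. It was 7.72 and 8.22 in KO against 8.12 and 8.08 in WT at day 12. The KO mice of days 6 and 9 stood above every WT mouse, and at day 12 the KO mice fell on both sides of WT. Within a day, 44.6% (day 6) and 65.8% (day 9) of all genes did not overlap between genotypes.

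The Ripk3 difference was 0.99 at day 6 (SE 0.19, limma adjusted p = 0.0433), 1.00 at day 9 (SE 0.19, adjusted p = 0.00250) and -0.13 at day 12 (95% interval -0.56 to 0.30, adjusted p = 0.701). The increases at days 6 and 9 were 1.99-fold and 2.00-fold. Day 12 differed from day 6 by -1.12 (limma adjusted p = 0.0194) and from day 9 by -1.13 (limma adjusted p = 0.0370) in that difference. A change between days 9 and 12 was called for 6.08% of all genes and for 1 of the 6 members, Ripk3. With the smooth muscle mean as a covariate, day 12 minus day 6 was -0.35 (limma adjusted p = 0.615), and adjusted over all probe sets both changes lost their call (adjusted p = 0.0589 and 0.0947). Within KO the signal at day 12 was 1.33 below that of day 9, a change of -1.33 (limma adjusted p = 0.00114), while WT showed no called change between days. Over all genes, 22.9% were called between days 9 and 12 within KO and 23.3% between days 6 and 12. The average over days was 0.62 (limma adjusted p = 0.00117, exact permutation p = 0.0370).

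The day 6 call of Ripk3 is fragile and the day 9 call is not. At day 6 it was lost in 9 of 12 fits that left out 1 array and held only without WT replicate 2 of day 6 or either KO replicate of day 12, with adjusted p from 0.0221 to 0.312 over the 12 fits. Also at day 6, with the smooth muscle mean as a covariate the difference was 0.40 (adjusted p = 0.673). All 9 smooth muscle markers were lower in KO at day 6 at an unadjusted p under 0.05 and 0 were called by limma, and KO and WT overlapped in their mean at day 9. At day 9 the Ripk3 call held in all 12 fits that left out 1 array, with differences from 0.82 to 1.18. The change of the difference from day 6 to day 12 kept its call in 7 of those 12 fits, from -1.39 to -0.86, and that from day 9 to day 12 in 4, from -1.38 to -0.88. At day 12 the sign turned to 0.12 without KO replicate 1, the KO mouse with the higher smooth muscle mean of that day.

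Against Casp8, Ripk3 was higher in KO throughout, though at day 12 Ripk3 itself differed by -0.13 and Casp8 by -0.49. The log2 ratio of Ripk3 over Casp8 differed by 0.88 at day 6, 1.55 at day 9 and 0.35 at day 12, with each KO mouse above each WT mouse of its day. The average was 0.93 (exact permutation p = 0.00926, adjusted p = 0.0123 over 4 ratios). Leaving out any 1 array gave averages from 0.81 to 1.05, with adjusted p no higher than 0.0370.

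Mlkl encodes the pseudokinase that RIPK3 activates to breach the membrane. Its signal was 7.52 and 7.91 in KO against 7.10 and 7.17 in WT at day 6. It was 7.62 and 7.91 in KO against 7.55 and 7.36 in WT at day 9. It was 7.62 and 7.83 in KO against 7.12 and 7.47 in WT at day 12. Each KO mouse lay above each WT mouse of its day, by as little as 0.07 at day 9. Of all genes, 44.6%, 65.8% and 58.2% likewise did not overlap, in either direction, at days 6, 9 and 12.

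No single day passed the limma test for Mlkl, with differences of 0.58 at day 6 (adjusted p = 0.143), 0.31 at day 9 (adjusted p = 0.178) and 0.43 at day 12 (adjusted p = 0.0717). The average over days did, at 0.44 (SE 0.09, limma adjusted p = 0.00316), a 1.36-fold increase (exact permutation p = 0.00926). By limma, 32.6% of all genes were called for that average. The permutation test was run for the members and not for all genes. Unlike Ripk3, Mlkl gave no called change of the difference between days (F test, limma adjusted p = 0.670), although the contrast between those genes was not tested over days. The ratio of Mlkl over Ripk3 differed by -0.41 at day 6, -0.69 at day 9 and 0.56 at day 12, and its average of -0.18 did not pass (exact permutation p = 0.407).

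Genes that feed or regulate the RHIM route moved in both directions, at days when 29.7% (day 9) and 27.3% (day 12) of all genes were called. Of 12 such genes, 0 were called by limma at day 6 (4 higher and 1 lower at an unadjusted p under 0.05), 5 were higher and 2 lower at day 9, and 3 were higher and 1 lower at day 12. Without KO replicate 1 of day 12 the count of that day was 2, and without WT replicate 2 it was 1. Zbp1, a sensor of Z-form nucleic acid that can activate RIPK3, had signals of 7.57 and 8.47 in KO against 7.41 and 7.53 in WT at day 6. It had 7.21 and 7.49 in KO against 9.62 and 8.42 in WT at day 9, and 6.68 and 6.53 in KO against 7.55 and 8.09 in WT at day 12. KO was above WT at day 6 and below it later, with differences of 0.55, -1.67 and -1.22 (limma adjusted p = 0.642, 0.00409 and 0.0237). Day 9 minus day 6 of that difference was -2.22 (limma adjusted p = 0.0145).

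Tlr3, the receptor for double-stranded RNA, differed by -0.29 at day 6 and fell by 1.47 at day 9 (limma adjusted p = 0.527 and 3.56e-05). Bnip3, a mitochondrial protein induced by low oxygen, had signals of 9.32 and 9.22 in KO against 7.34 and 7.71 in WT at day 9. It rose by 1.75 at day 9 and 0.69 at day 12 and differed by -0.67 at day 6 (limma adjusted p = 6.91e-06, 0.00426 and 0.0625). Cdc37, the HSP90 co-chaperone that supports RIPK3, rose by 0.78 at day 9 and 0.56 at day 12, and Stub1, a ubiquitin ligase of chaperone clients, rose by 0.45 at day 12. Stub1 was also higher at day 9, with signals of 9.24 and 9.11 in KO against 8.49 and 8.61 in WT.

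**Figure D5:**
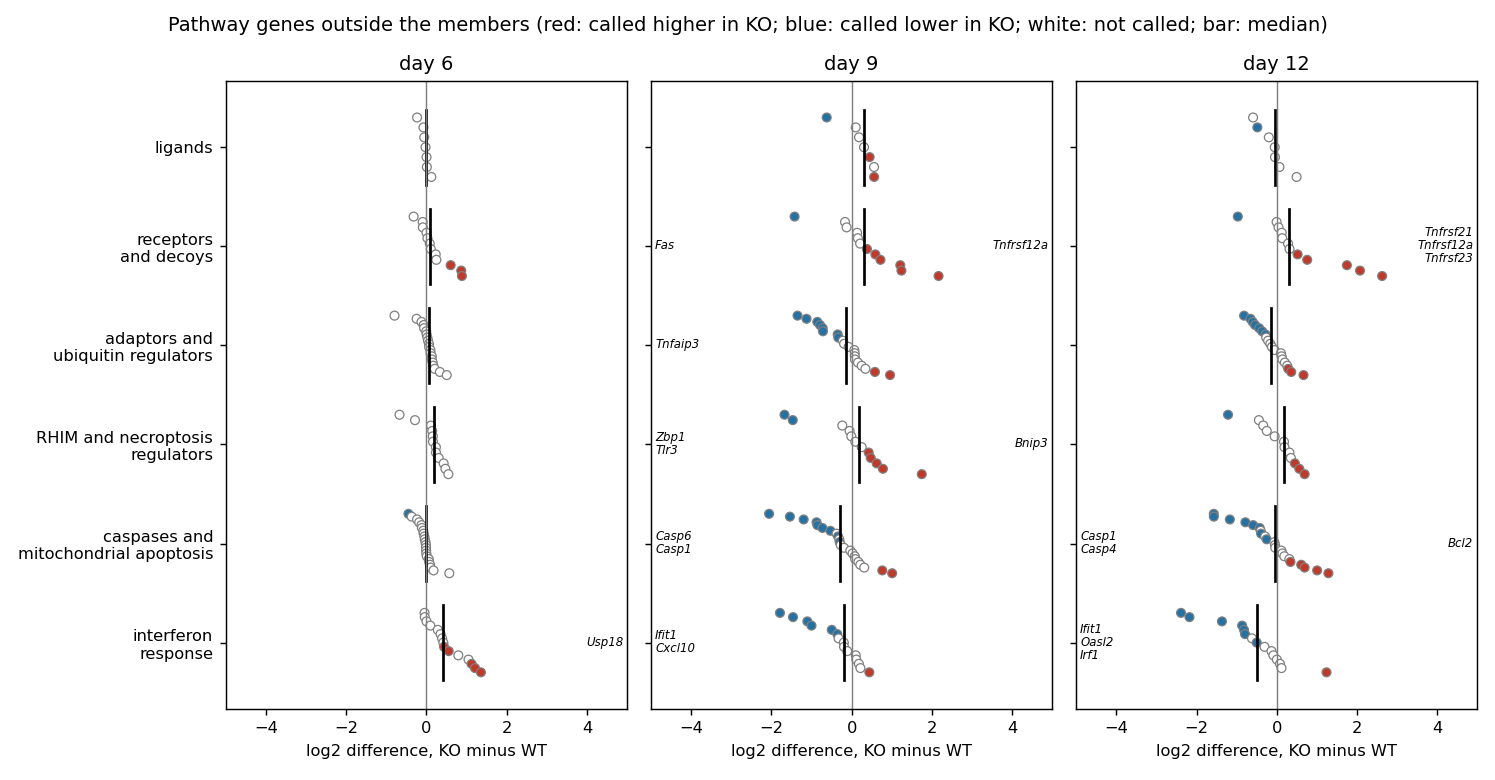
KO minus WT difference on the log2 scale of each measured gene of 6 pathway lists, by day, with the median of each list as a bar and the called genes farthest from 0 named at the panel's edge. The receptors extend to 2.62 at day 12 with Tnfrsf23, and the interferon list has 5 genes called higher at day 6 and 7 called lower at day 12.

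Interferon response genes were followed as a further pathway list. Among all genes, 1.03%, 29.7% and 27.3% were called at days 6, 9 and 12. Of 15 measured genes, 5 were higher and 0 lower at day 6 (0 lower also at an unadjusted p under 0.05), 1 was higher and 6 lower at day 9, and 1 was higher and 7 lower at day 12. Usp18, which limits interferon signalling, had signals of 7.66 and 8.24 in KO against 6.48 and 6.70 in WT at day 6, a rise of 1.36 (limma adjusted p = 0.0424). Oasl2, an antiviral gene, rose by 1.21 at day 6 and fell by 1.00 at day 9 and 2.18 at day 12. Ifit1, another antiviral gene, differed by 1.05 at day 6 (limma adjusted p = 0.149) and fell by 1.79 at day 9 and 2.39 at day 12. The list's mean was 0.294 and 0.417 in KO against -0.220 and -0.131 in WT at day 6, -0.250 and -0.126 in KO against 0.229 and 0.192 in WT at day 9, and -0.514 and -0.703 in KO against -0.206 and 0.137 in WT at day 12. The day 6 interferon calls depended on the setting, with 0 to 3 genes called in 6 alternative fits and 0 without either KO replicate of day 6, 1 without either WT replicate of day 6, 2 without any day 9 replicate and 3 without either WT replicate of day 12. The 7 calls of day 9 were 4 without KO replicate 1 of that day, and the 8 of day 12 were 5 without KO replicate 2 of that day.

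The genotype by day interaction was called for Tnfsf10, Cflar, Fadd and Ripk3, 4 of 6 members against 18.5% of all genes. The count was 2 without KO replicate 2 or WT replicate 1 of day 6 or either WT replicate of day 12. The change over days within KO was called for those 4 genes, against 37.6% of all genes, and for 2 without KO replicate 2 of day 6. Within WT it was called by limma for 0 of 6 members (2 at an unadjusted p under 0.05, Tnfsf10 and Fadd), against 0.0201% of all genes.

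Of the remaining marker lists, neutrophil markers were higher in KO for 4 of 8 genes at day 9 and 3 of 8 at day 12, with 5 of the 8 below the 95th percentile of the odorant receptor genes on all arrays. Of 5 Paneth cell markers, 4 were lower in KO at day 12, with a mean of -0.932 and -0.918 in KO against 0.155 and -0.123 in WT. Of 5 natural killer markers, 0 cleared that percentile on all arrays. Macrophage markers were higher for 1 of 9 genes at day 9 and for 3, with 2 lower, at day 12. Their part in the members' differences was not tested. For comparison, 29.7% and 27.3% of all genes were called at days 9 and 12.

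Across the 12 arrays, the genes whose pattern was most like Tnfsf10 were Slc31a1 (Pearson r = 0.995), Casp1 (0.995) and Aldh18a1 (0.993). For Cflar they were Il10rb (0.985), Gtpbp8 (0.984) and Wrn (0.983), and for Fadd they were Lrsam1 (0.956), Hspa12a (0.953) and Rpn2 (0.950). For Ripk3 they were Tacc3 (0.958), Rrp9 (0.936) and Gsr (0.927), and for Casp8 they were Zc3h7a (0.937), Arhgap17 (0.936) and Rfx6 (0.935). Mlkl had the lowest such values, with Net1 (0.904), Nedd1 (0.893) and Mbd2 (0.888). These are descriptions over 12 arrays that share the same genotype and day groups, and Casp1 is the only pathway gene among them.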

How the data were processed

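RNA of whole jejunum from 12 mice was read on 12 single-channel arrays. The values are the authors' log2 signals for 35556 probe sets, taken unchanged (2.29 to 14.13, array medians 5.95 to 6.02). In the submitters' processing notes the tools listed are limma and R 3.5. For array scaling, the method is not given in the sources used here.

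GEO's platform annotation gave 1 gene symbol to 21789 probe sets and several to 1621, and 12146 are unnamed here. For 999 symbols with several probe sets, the brightest was used, giving 19938 genes with no filter on low signal. Arrays of a group correlated at 0.992 to 0.997, and no 2 arrays were identical.

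A limma 3.58.1 fit (R 4.3.3) had 1 mean for each of 6 groups; its moderated tests used 6 residual and 5.23 prior degrees of freedom. All tests were two-sided. The p-values of this fit had Benjamini-Hochberg adjustment over 19938 genes and calls under 0.05, and those of single Cflar probe sets were adjusted over all 35556 probe sets. Within-array ratios and averages over days were tested by permuting genotype within days. The p-values of the ratios were adjusted over the 4 ratios, and the permutation p-values of single members were not adjusted. The median SE of a difference was 0.11 at 1 day and 0.07 over days. With 2 mice per group, the number of arrays limits the precision. Nothing in the labels names litters or batches.

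The members and lists were chosen with earlier results of these data known. Named genes are the members, up to 4 called genes per pathway list and day with the largest differences, the genes Tnf, Fasl, Fas, Tnfrsf10b and Zbp1, and the 3 genes most correlated with each member. Birc3 and Stub1 at day 9 and the smaller differences of named genes at other days were added after their values were seen. Of 95 pathway entries, 88 were measured. Promoter stretches (250 bases) came from RefSeq.

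On simulated data for KO against WT at 1 day with 19938 genes, 56.7% of 1.5-fold, 91.0% of 2-fold and 99.0% of 4-fold changes were called. Of the calls, 3.92% were false. That simulation changed only a small share of the genes and drew noise separately for each gene. In the data 29.7% of all genes were called at day 9, so these rates may not hold here. The alternatives changed array scaling, low-signal filter, probe set choice, features adjusted over, moderation, replicate block, smooth muscle covariate, arrays in the fit, and left out each array in turn. Testing each Cflar probe set on its own was chosen after seeing the data.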

Additional observations from a re-analysis of the deposited data

Results flagged for a closer look

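Each of 4 genes had a KO minus WT difference that changed between days by a test of the change itself (limma interaction contrast, adjusted over all genes). For Tnfsf10 the difference at day 9 minus that at day 6 was -3.15 (adjusted p = 6.62e-06), and day 12 minus day 6 was -2.71 (adjusted p = 7.81e-06). For Cflar, day 9 minus day 6 was -0.82 (adjusted p = 0.0237). For Fadd, day 9 minus day 6 was -0.72 (adjusted p = 0.0241) and day 12 minus day 6 was -0.75 (adjusted p = 0.0185). For Ripk3, day 12 minus day 6 was -1.12 (adjusted p = 0.0194) and day 12 minus day 9 was -1.13 (adjusted p = 0.0370). With the smooth muscle mean as a covariate the calls for Cflar (-0.56, adjusted p = 0.355), Fadd (-0.77 and -0.80, 0.170 and 0.161) and Ripk3 at day 12 minus day 6 (-0.35, 0.615) were lost. Adjusted over all probe sets, those for Cflar (0.0620), Fadd at day 9 minus day 6 (0.0596) and Ripk3 (0.0589 and 0.0947) were lost, and under quantile normalization that for Fadd at day 9 minus day 6 (0.0564). Groups of 2 mice are too small for an outlier test.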

How the results depend on the processing

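With 2 mice per group, a fit without 1 array assumes that the lone mouse varies like the other groups. The number of members called at day 6, 2 as reported, was 1 when adjusted over all probe sets, with the replicate block, with the smooth muscle covariate or with only the 4 arrays of the day, and 0 to 2 without 1 array. The interaction count of 4 was 1 over all probe sets and 2 with the smooth muscle covariate, and 2 to 4 without 1 array. The count for change over days in KO was 2 to 5 without 1 array. The count of ligands for the average over days, 1 as reported, was 2 with quantile normalization, the replicate block or the smooth muscle covariate, and 1 to 2 without 1 array. The ratio of Cflar over Casp8 was -0.17 with the mean of all probe sets, and -0.43 to -0.27 without 1 array. Signs turned for Ripk3 at day 12, to 0.0528 with the smooth muscle covariate and 0.12 without KO replicate 1 of day 12 (range without 1 array -0.3788 to 0.1176), and with that covariate for Casp8 at day 6, to -0.57, and for Casp8 within KO at day 12 minus day 6, to 0.21. The causes were not tested.

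The day 6 interferon count of 5 was 2, 1, 3, 1, 0 and 2 under quantile normalization, adjustment over all probe sets, trended robust moderation, the replicate block, the smooth muscle covariate and the 4 arrays of the day. Receptors at day 6, 3 as reported, were 1 over all probe sets or with the covariate. The 1 caspase-list call of day 6 became 0 over all probe sets, with the block, with the covariate and with the day's 4 arrays, and the 1 ligand of day 12 became 0 over all probe sets and 2 with the covariate. Adaptors had 1 call at day 6, not 0, with dim genes left out, trended robust moderation, the block or the day's 4 arrays, which gave 6 at day 12, not 10. The necroptosis list had 1 call at day 6, not 0, with the mean of all probe sets. Over all genes, 205 calls at day 6 became 37 over all probe sets, 18 with the covariate and 101 with the replicate block. Same-numbered mice correlated at 0.18, -0.09 and 0.113 in their deviations from group means at days 6, 9 and 12, so the numbers were not taken as pairs. The replicate block also gave Mlkl at day 12 a call at 0.43 (adjusted p = 0.0465). Array centring and quantile normalization moved the median KO minus WT difference of all genes by at most 0.029.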
